A study of Homo sapiens with 4 samples.

Results

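The 26S proteasome is the enzyme complex that degrades ubiquitin-tagged proteins. The genes described here are a list of 40 for its constitutive subunits, its activators and chaperones of its assembly. They are 14 subunits of the 20S core (7 of the alpha ring, PSMA1 to PSMA7, and 7 of the beta ring, PSMB1 to PSMB7), 21 genes of the 19S cap, 4 activator genes (PSME1 to PSME4) and POMP. The 19S cap genes are 6 base ATPases (PSMC1 to PSMC6), 4 other base subunits (PSMD1, PSMD2, PSMD4 and ADRM1), 8 lid subunits (PSMD3, PSMD6, PSMD7, PSMD8, PSMD11, PSMD12, PSMD13 and PSMD14) and 3 chaperones of base assembly (PSMD5, PSMD9 and PSMD10). Members were chosen by name and matched to the table by Ensembl identifier: all 40 were found once each among 50653 genes, and all 40 passed the filter of a mean level of at least 1 FPKM, as 14321 genes did. FPKM counts sequenced fragments per kilobase of transcript, relative to the size of the library. For most genes the values matched a length averaged over all annotated transcripts of the gene. Levels compared between genes therefore depend on which transcripts are annotated, while a comparison of 1 gene between libraries does not.

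RNA was sequenced from the human breast cancer lines BT-20 and MDA-MB-468 (MB-468 in the labels), each transfected with a control shRNA or with a shRNA against QPRT (quinolinate phosphoribosyltransferase, an enzyme of NAD synthesis). Cells were transduced with lentivirus and selected with puromycin, so the control libraries carry vector and selection too. Each of the 4 combinations was sequenced once, and depth recovered from the FPKM steps was 10321996 to 10945948 fragments. QPRT itself was at 248.6 FPKM with the control shRNA and 40.5 with the QPRT shRNA in BT-20, and at 117.3 and 18.3 in MDA-MB-468. The epithelial markers KRT8, KRT18, KRT19, EPCAM, CDH1 and EGFR were between 76.1 and 4214 FPKM in all 4 libraries. PGR was listed at 0 throughout. ESR1 was between 1.05 and 5.76 FPKM, and ERBB2 between 50.7 and 128.9. PTPRC, CD3E and ALB stayed under 1 FPKM, while CD14 reached 26.1 FPKM in MDA-MB-468 with the QPRT shRNA and COL1A1 32.0 in BT-20 with the control shRNA.

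The 20S core is a barrel of stacked rings. The outer alpha rings gate the entry, and the inner beta rings hold the proteolytic sites on the subunits encoded by PSMB5, PSMB6 and PSMB7. The 19S cap binds ubiquitin chains, cuts them off and feeds the unfolded protein into the core with its ring of ATPases; the PSME proteins are other caps for the same core. Because subunits are built into the complex in fixed proportions, their genes are known to be expressed together, in part through the transcription factor encoded by NFE2L1, which binds antioxidant response elements.

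Promoter sequence from RefSeq (GRCh38.p14) was held for 35 of the 40 members, as windows of 250 bases upstream of the annotated start. PSMA7, PSMB1, PSMB6, PSMB7 and PSMD4 were not among them. The core of the antioxidant response element, searched on both strands as TGACNNNGC or TGAGNNNGC, was present for 17 of the 35 (48.6%) and for 28.1% of 27305 genes with a window. The CCAAT box was present for 17 of 35 (48.6%) against 37% of all genes. The ETS letters CCGGAAG were present for 9 of 35 (25.7%) against 10.2% of all, with 0 of 10 core genes and 7 of 20 cap genes holding them. No searched motif is contained in another, and a letter match is a description of the window. The windows of 4 members follow, cut to the stretch that no annotated exon covers, with antioxidant core, CCAAT and ETS letters in capitals. PSMB3 and PSMA5 are shown as core members that were lower in BT-20 cells with the QPRT shRNA, PSMD12 as the cap member with the largest log2(FPKM + 1) rise there, and PSMC3 as a cap member that was higher in MDA-MB-468. PSMB3 is read from chr17:38752491-38752735 on the plus strand, PSMA5 from chr1:109426449-109426698 on the minus strand, PSMC3 from chr11:47426474-47426689 on the minus strand and PSMD12 from chr17:67366628-67366827 on the minus strand.
PSMB3: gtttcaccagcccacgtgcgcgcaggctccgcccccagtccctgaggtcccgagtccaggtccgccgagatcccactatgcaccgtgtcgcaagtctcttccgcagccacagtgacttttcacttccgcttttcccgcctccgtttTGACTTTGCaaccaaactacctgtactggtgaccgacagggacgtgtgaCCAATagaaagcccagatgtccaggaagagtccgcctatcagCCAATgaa
PSMA5: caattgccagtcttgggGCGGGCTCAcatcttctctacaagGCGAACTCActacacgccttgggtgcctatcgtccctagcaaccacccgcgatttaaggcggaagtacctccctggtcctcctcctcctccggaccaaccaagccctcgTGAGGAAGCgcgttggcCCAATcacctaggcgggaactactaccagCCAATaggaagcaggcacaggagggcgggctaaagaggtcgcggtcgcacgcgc
PSMC3: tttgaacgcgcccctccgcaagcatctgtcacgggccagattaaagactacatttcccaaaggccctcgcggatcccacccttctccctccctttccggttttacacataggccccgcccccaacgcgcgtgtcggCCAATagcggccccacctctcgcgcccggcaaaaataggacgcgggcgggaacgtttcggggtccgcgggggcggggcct
PSMD12: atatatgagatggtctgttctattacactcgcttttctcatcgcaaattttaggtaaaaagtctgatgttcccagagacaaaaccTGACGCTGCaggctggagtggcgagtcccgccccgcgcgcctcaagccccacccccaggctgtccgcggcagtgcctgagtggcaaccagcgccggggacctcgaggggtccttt
The PSMB3 stretch holds 1 antioxidant core and 2 CCAAT boxes, and the PSMA5 stretch 3 and 2. The PSMC3 stretch holds 1 CCAAT box, and the PSMD12 stretch 1 antioxidant core.

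Transcript levels were high for most subunits. The median over the 14 core genes was 208.2 FPKM in BT-20 with the control shRNA, 152.9 with the QPRT shRNA, 151.6 in MDA-MB-468 with the control shRNA and 137.4 with the QPRT shRNA. Over the 21 cap genes the medians were 94.6, 90.6, 86.5 and 78.4 FPKM in the same order, and over all tested genes 13.4 to 15.3 FPKM. Core medians therefore stood above cap medians in every library. PSMA7, an alpha ring subunit, had the highest level in all 4 libraries: 678.7 and 609.6 FPKM in BT-20 with the control and the QPRT shRNA, and 402.4 and 384.2 in MDA-MB-468. PSMB4 (mean of the 4 libraries 326.9 FPKM), PSMD2 (323.8), PSMB7 (323.3) and PSMD8 (304.2) came next in mean level, and the first 3 of these lie within 4 FPKM of each other. This order and the core and cap medians rest on mean transcript lengths, such as 1007 bases over 20 transcripts for PSMD2.

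**Figure D1:**
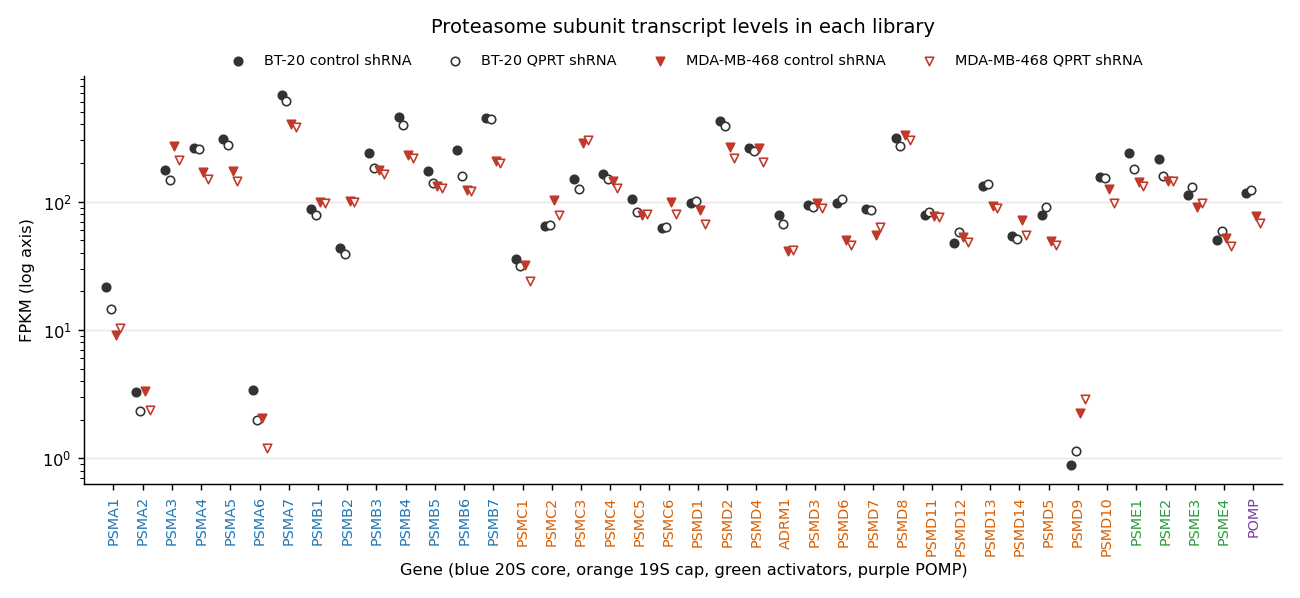
FPKM of each of the 40 genes in the 4 libraries, 1 point per library, on a log axis, with no error bars because each library was sequenced once. PSMA7 is highest in all libraries (384.2 to 678.7 FPKM), PSMA2, PSMA6 and PSMD9 stand apart at the bottom, and PSMA1 is the next lowest.

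The 4 members with the lowest means were PSMD9, PSMA6, PSMA2 and PSMA1, of which the first 3 were far below the rest. PSMD9, a chaperone of base assembly, was at 0.887 and 1.15 FPKM in BT-20 (control then QPRT shRNA) and at 2.24 and 2.92 in MDA-MB-468, from 15, 20, 39 and 48 fragments. PSMA6 was at 3.41, 1.99, 2.08 and 1.202 FPKM and PSMA2 at 3.31, 2.32, 3.37 and 2.401. PSMA1 was at 21.5, 14.6, 9.12 and 10.4 FPKM, while the lowest of the other 36, the ATPase PSMC1, was at 35.6, 31.4, 31.9 and 24.3. These 4 are the only members with over 50% of their coding bases inside an exon of another gene annotated on the same strand in GENCODE 29: 97.1% for PSMA2, 88.6% for PSMA1, 70.4% for PSMA6 and 58.7% for PSMD9. Among the other 36 the share was 0 except for PSME2 (0.125%). Of 12237 tested protein-coding genes 3.3% had such a share, with a median level of 9.35 FPKM against 20.7 for those under it. Levels of genes with such a share reached 863.1 FPKM. The overlapping genes of PSMA1, PSMA2 and PSMA6 were themselves at 0 to 0.0251 FPKM in all 4 libraries, and those of PSMD9 (CFAP251 and ENSG00000256950) at 0 to 0.393 FPKM. How fragments in shared bases were assigned is not given in the sources used here, and the part of shared bases in these levels was not tested. This measure of overlap was chosen after the levels were seen. Other members overlap genes on the opposite strand, foremost PSMC1, with 75.8% of its exon bases under NRDE2 (4.79 to 6.31 FPKM), and whether the counting used strand is not given either.

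**Figure D2:**
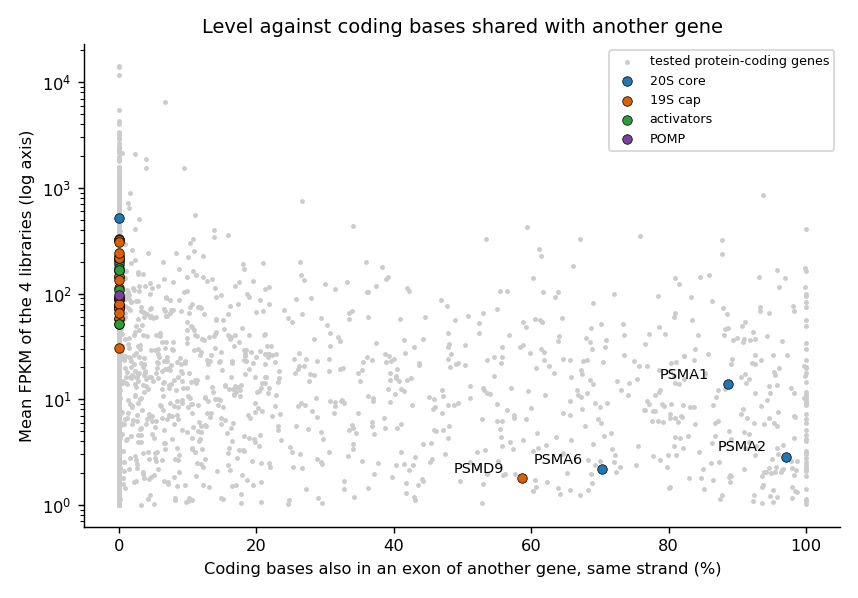
Mean FPKM over the 4 libraries (log axis) against the percent of coding bases that also lie in an exon of another gene on the same strand, with tested protein-coding genes in grey. PSMA1, PSMA2, PSMA6 and PSMD9 lie to the right at 58.7 to 97.1% at 13.9 FPKM or less, and the other 36 members lie near 0% at 30.8 FPKM or more.

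In BT-20, all 14 core genes were lower with the QPRT shRNA than with the control shRNA, with a median log2 change of -0.23 on the log2(FPKM + 1) scale (14.7% lower); rescaled to equal library sums (TPM), 12 of 14 were lower, PSMA4 and PSMB7 being the exceptions, with a median of -0.18. Of all tested genes 43% were lower, and their median was 0.05. The cap did not move as one: 12 of 21 genes were lower and 9 higher, with a median of -0.02 that became 0.03 on the TPM scale. Once lowess trends on GC content and length were taken out of all genes, the core median was -0.25 (13 of 14 lower) and the cap median -0.01. Against the 200 genes nearest in GC content and length they were -0.27 and -0.05. Without PSMA1, PSMA2 and PSMA6, whose low levels are described above, the core median was -0.16 with 11 of 11 lower. Each library exists once, so these are differences between 2 libraries, which cannot be told apart from variation between cultures, and they carry no p-value.

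Among the catalytic beta subunits, PSMB6 (caspase-like site) was at 252.9 FPKM with the control shRNA and 158.2 with the QPRT shRNA in BT-20, a log2 change of -0.67. The exact 95% Clopper-Pearson interval of its fragment ratio was -0.78 to -0.57, which covers counting error only. PSMB5 (chymotrypsin-like site) was at 174.6 and 138.6 FPKM, a change of -0.33 with an interval of -0.44 to -0.23. PSMB7 (trypsin-like site) was at 448.3 and 438.1 FPKM, -0.03, with an interval of -0.10 to 0.04 that holds 0. The 3 catalytic genes thus ranged from almost level to -0.67, which was the lowest of all 40 members on this scale; with a pseudocount of 0.1 PSMA6 was lower (-0.75 against -0.68), and with the trend removed it was at -0.55 against -0.50. On the log2(FPKM + 1) scale PSMB6 was also the only member past 1.5-fold in BT-20 (1.6-fold lower; 2 members with a pseudocount of 0.1), as 3.27% of tested genes were lower by that much, and 0 members were higher by 1.5-fold against 5.7% of genes. With the GC content and length trend removed, 0 members were past it. Further falls in the core were those of PSMA6 (-0.56, interval -1.63 to 0.05), PSMA1 (-0.53, interval -0.89 to -0.23) and the beta ring subunit PSMB3, from 240.0 to 182.1 FPKM (-0.40, interval -0.51 to -0.29).

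In the cap, the ATPase PSMC5 went from 104.2 to 83.9 FPKM in BT-20 (-0.31), the ATPase PSMC3 from 149.6 to 126.4 (-0.24) and the ubiquitin receptor ADRM1 from 78.6 to 67.0 (-0.23). On the other side, the lid subunit PSMD12 went from 47.5 to 58.3 FPKM (0.29, interval 0.16 to 0.44) and the base chaperone PSMD5 from 78.2 to 90.6 (0.21, interval 0.08 to 0.35). PSMD9 came next at 0.19, but its interval of -0.66 to 1.45 holds 0. The ubiquitin receptor PSMD4 was at 263.6 and 246.8 FPKM (-0.09), and the lid deubiquitinase PSMD14 at 54.1 and 50.8 (-0.09, interval -0.21 to 0.03). Base ATPases were lower in 4 of 6 cases (median -0.15) and lid subunits in 4 of 8 (median 0.02).

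The activators split by kind in BT-20. PSME1 and PSME2, which form the PA28 alpha-beta ring known for its induction by interferon gamma, went from 239.0 to 181.4 FPKM (-0.40) and from 216.5 to 159.1 (-0.44). PSME3, the nuclear PA28 gamma, went from 112.2 to 129.5 FPKM (0.21) and PSME4, the PA200 activator, from 50.05 to 59.0 (0.23, but -0.04 relative to the 200 nearest genes). None of the 4 counting intervals held 0. POMP, the chaperone that starts core maturation, was at 116.1 and 124.0 FPKM (0.09, with an interval that holds 0). Over all 40 genes the counting interval lay below 0 for 20 members and above 0 for 5 in BT-20, beside 16.7% and 26.8% of all genes with a transcript length. Such intervals are narrower for genes with more fragments, and these shares are not matched on level. In the BT-20 control library the median was 108.2 FPKM over the members and 13.4 over all tested genes.

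In MDA-MB-468 the order of core and cap was the other way round. The core was lower in 13 of 14 genes but by little, with a median of -0.07, while the cap was lower in 16 of 21 with a median of -0.14; 47.6% of all tested genes were lower and their median was 0.01. With the GC content and length trend removed the medians were -0.10 for the core (11 of 14 lower) and -0.20 for the cap (19 of 21 lower). Against the nearest genes they were -0.12 and -0.21. The counting interval lay below 0 for 17 members and above 0 for 2, beside 21.1% and 22.9% of genes, again not matched on level. In the MDA-MB-468 control library the median was 99.7 FPKM over the members and 15.0 over all tested genes. No member was past 1.5-fold in either direction, where 3.71% of genes were lower and 5.46% higher by that much.

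The 3 catalytic genes hardly differed between the MDA-MB-468 libraries. PSMB6 was at 123.1 FPKM with the control shRNA and 121.7 with the QPRT shRNA, PSMB5 at 131.6 and 128.7, and PSMB7 at 206.9 and 200.2. Their log2 changes were -0.02, -0.03 and -0.05, and all 3 intervals held 0. The largest falls in the core were in the alpha ring: PSMA6 (-0.48, interval -1.94 to 0.29), PSMA2 (-0.36, interval -1.08 to 0.09) and PSMA3, which went from 271.2 to 212.9 FPKM (-0.35, interval -0.44 to -0.25). PSMA1 was the 1 core gene that was higher (0.17, interval -0.26 to 0.63). The alpha ring had a median of -0.25 and the beta ring of -0.03.

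In the MDA-MB-468 cap, the ATPase PSMC2 went from 102.7 to 78.4 FPKM (-0.39, interval -0.50 to -0.28), the ATPase PSMC1 from 31.9 to 24.3 (-0.38) and PSMD14 from 72.5 to 55.5 (-0.38, interval -0.50 to -0.27). PSMD4 went from 261.7 to 204.5 FPKM (-0.35, interval -0.45 to -0.26). All 4 had intervals below 0, and in BT-20 the same genes had log2 changes of 0.04, -0.18, -0.09 and -0.09. The cap genes with the largest rises were PSMD9 (0.28, interval -0.26 to 1.03), the lid subunit PSMD7, from 54.7 to 63.5 FPKM (0.21, interval 0.05 to 0.38), and PSMC3, from 286.7 to 303.7 (0.08, interval 0.01 to 0.16, but -0.02 relative to the nearest genes). ADRM1 was at 41.6 and 42.2 FPKM (0.02). Of the genes named for BT-20, PSMB3 was at 175.2 and 165.4 FPKM in MDA-MB-468, PSMC5 at 78.65 and 79.7 and PSMD12 at 52.9 and 48.3. PSMD7, named here, was at 87.7 and 86.9 FPKM in BT-20, where it was almost level.

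Activators in MDA-MB-468 moved less. PSME1 was at 142.9 and 133.7 FPKM (-0.10), PSME2 at 144.1 and 145.4 (0.01) and PSME3 at 90.2 and 96.9 (0.10), and these 3 intervals held 0. PSME4 went from 52.2 to 45.1 FPKM (-0.21, interval -0.33 to -0.10), and POMP from 77.05 to 68.8 (-0.16, interval -0.29 to -0.04). PSME4 was thus higher in BT-20 and lower in MDA-MB-468 as measured, but relative to the 200 genes nearest in GC content and length it was at -0.04 and -0.03.

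**Figure D3:**
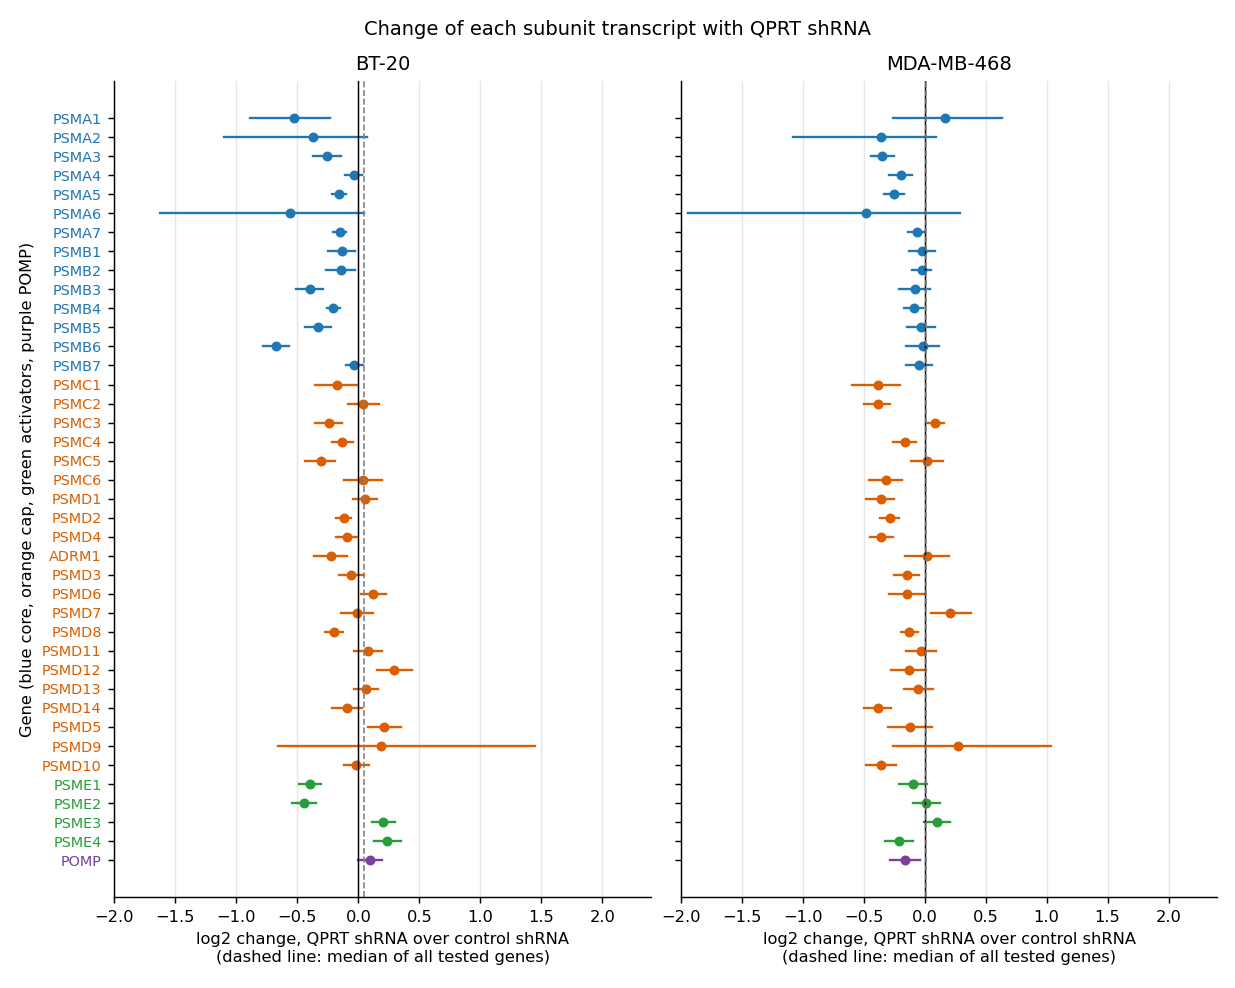
Log2 change of each gene with the QPRT shRNA against the control shRNA in BT-20 (left) and MDA-MB-468 (right); points are on the log2(FPKM + 1) scale, bars are exact 95% counting intervals of the fragment ratio, and the dashed line is the median of all tested genes. In BT-20 all 14 core genes lie left of 0 (12 of 14 on the TPM scale) while the cap lies on both sides, and in MDA-MB-468 16 of 21 cap genes lie left of 0.

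Taking the 2 lines side by side, 22 of the 40 members (55%) were lower with the QPRT shRNA in both, as were 17.7% of all tested genes. The share was 13 of 14 in the core and 8 of 21 in the cap, and with the GC content and length trend removed 10 of 14 and 12 of 21, beside 21.2% of all genes. The sizes of the changes did not follow each other: across the 40 genes Spearman's rho between the lines was -0.098, beside -0.109 across all tested genes, given as a description since genes of 1 library are not independent. The 4 libraries entered a limma fit with cell line and shRNA as terms, in which the lines stand in for replicates and 1 residual degree of freedom is left per gene. In that fit 0 of the 40 members passed a Benjamini-Hochberg adjusted p of 0.05 for the shRNA. An unadjusted limma p under 0.05 was found for 0 members, beside 687 of all 14321 tested genes. Of all tested genes 0.265% passed as higher and 0.363% as lower. PSMB6 had the lowest unadjusted limma p of the members (0.0762, adjusted p = 1.00, log2 change -0.35 with SE 0.195). A change of this size shared by both lines was not separable from the spread in this fit.

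Base composition moved with the knockdown differences. Over 14232 genes with a transcript sequence, the log2 change in BT-20 had a Spearman's rho of -0.271 with GC content and 0.274 with length, and in MDA-MB-468 of 0.284 and -0.109. Over the 40 members the values were -0.339 and 0.505 in BT-20, against 0.522 and -0.209 in MDA-MB-468, so both sets of genes run in opposite directions in the 2 lines. The core has a median GC content of 44.9% and a median length of 923.5 bases, the cap 47.5% and 1211, and all tested genes 50.1% and 1500.5. At their GC content and length, the 200 nearest genes of each core member had a median change near 0 in BT-20 (-0.004), and the core median was -0.27 relative to them, beside -0.23 as measured.

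**Figure D4:**
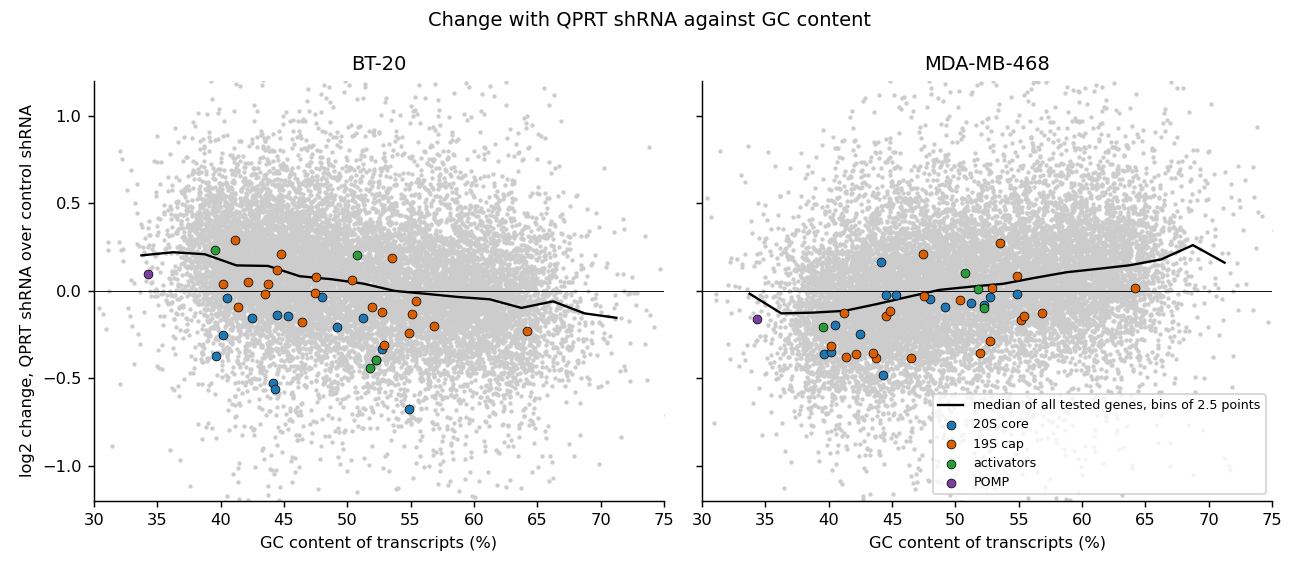
Log2 change with the QPRT shRNA against the mean GC content of each gene's transcripts (%), with all tested genes in grey (those beyond the axes not shown) and their median per bin as a line; bins under 20 genes are left out of the line. The line falls with GC content in BT-20 and rises in MDA-MB-468, and in BT-20 most core genes (blue) lie below it.

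Between the lines the subunits differed by more than between the shRNAs. With the control shRNA, 10 of 14 core genes were lower in MDA-MB-468 than in BT-20, with a median log2 difference of -0.57, and 13 of 21 cap genes, with a median of -0.15 (-0.07 with the GC content and length trend removed and -0.39 relative to the nearest genes). Of all tested genes 44.5% were lower and the median was 0.12. With the QPRT shRNA, from libraries separate from those, 10 of 14 core genes (median -0.41) and 15 of 21 cap genes (median -0.27) were lower, beside 46.8% of all genes and a median of 0.07. Members at least 1.5-fold lower numbered 13 of 40 with either shRNA, beside 23.1% and 23.9% of all tested genes, and those at least 1.5-fold higher 6 and 3, beside 31.1% and 29.2%. These comparisons use the same 4 libraries as the knockdown comparisons.

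In the limma fit 22 of 40 members passed an adjusted p of 0.05 for cell line. Of these, 6 were higher in MDA-MB-468 (30.7% of all tested genes were) and 16 lower (24.4%). The core accounts for 2 higher and 7 lower, and the cap for 4 higher and 7 lower. Among all tested genes 7893 passed, 3496 of them lower. The share of members that passed in either direction, 22 of 40, is close to that of all genes. For this term the control and QPRT shRNA libraries of each line stand in for its replicates. Without the filter on low values 0 members and 0 of 50626 genes passed, and the lowest adjusted limma p of a member was 0.16 (PSMB2).

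PSMB2, a beta ring subunit without a catalytic site, was the core member with the largest excess in MDA-MB-468. It was at 43.6 and 39.3 FPKM in BT-20 (control then QPRT shRNA) and at 100.8 and 99.1 in MDA-MB-468, a log2 difference of 1.2519 (SE 0.206, adjusted p = 8.07e-09 by limma). PSMC3 was at 149.6 and 126.4 against 286.7 and 303.7 FPKM, with a difference of 1.10 (SE 0.192, adjusted p = 7.01e-08). For both genes the 2 MDA-MB-468 libraries lay above the 2 BT-20 libraries without overlap. PSMA3 (0.57), PSMC6 (0.50), PSMC2 (0.45) and PSMD9 (0.82) were the other members higher by this fit. PSMA3 was at 176.3 and 147.7 against 271.2 and 212.9 FPKM, PSMC6 at 62.1 and 63.8 against 99.8 and 79.9, and PSMC2 at 64.3 and 66.2 against 102.7 and 78.4. The lines did not overlap for these 3 either. PSMB1, at 87.2 and 79.2 against 99.6 and 98.1 FPKM, differed by 0.25 without passing (adjusted p = 0.296 by limma).

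The largest deficit in MDA-MB-468 was that of PSMB7, at 448.3 and 438.1 FPKM in BT-20 against 206.9 and 200.2, a limma log2 difference of -1.12 (SE 0.190, adjusted p = 2.26e-08). The lid subunit PSMD6 was at 97.2 and 105.8 against 50.6 and 45.7 FPKM (-1.06), and PSMB4 at 460.1 and 399.0 against 231.2 and 217.3 (-0.93). The BT-20 libraries lay above the MDA-MB-468 libraries without overlap for all 3 genes. Among the others, PSMA5 was at 309.2 and 277.3 against 173.9 and 146.2 FPKM, PSMD5 at 78.2 and 90.6 against 49.6 and 45.7, and PSMD2, a scaffold of the base, at 423.1 and 389.3 against 265.3 and 217.3. All 3 were likewise lower in both MDA-MB-468 libraries than in either BT-20 library. PSMA5 (-0.87), PSMD5 (-0.81), PSMA1 (-0.80), ADRM1 (-0.78), PSMD2 (-0.75), POMP (-0.71), PSMA7 (-0.71), PSMB6 (-0.70), PSMA4 (-0.70), PSME1 (-0.59), PSMD13 (-0.57), PSMD7 (-0.56) and PSMD10 (-0.47) also passed. Of the catalytic genes, PSMB5 did not (-0.26, adjusted p = 0.266 by limma), nor did PSMD14 (0.27) or PSMD4 (-0.14). PSMB6 differed by -1.03 between the control libraries and by -0.38 between the QPRT shRNA libraries.

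**Figure D5:**
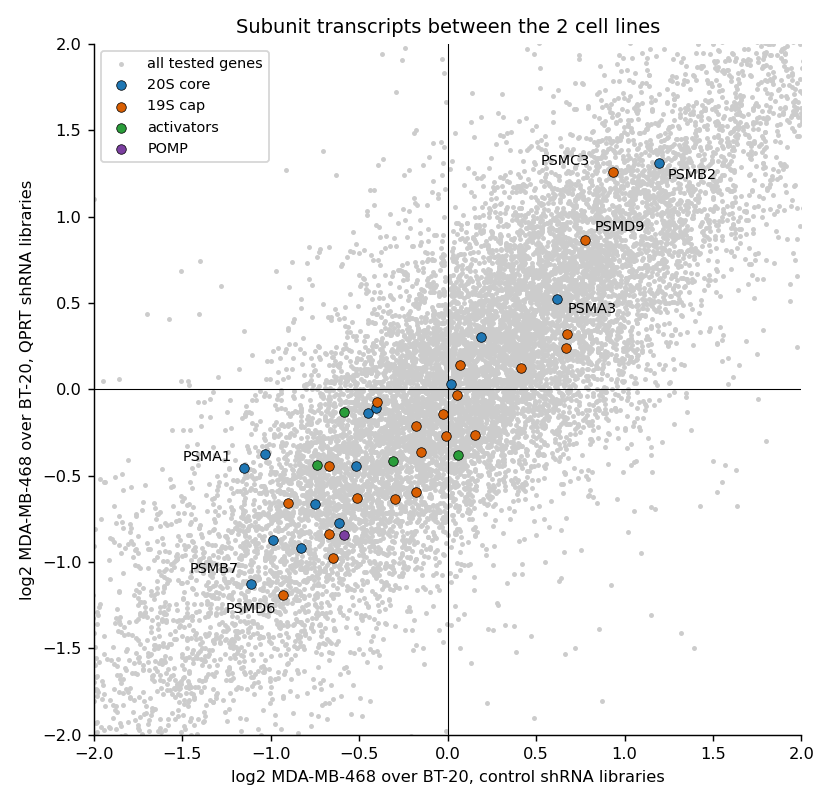
Log2 difference MDA-MB-468 over BT-20 in the control shRNA libraries (x axis) and in the QPRT shRNA libraries (y axis), with all tested genes in grey (those beyond the axes not shown). PSMB2 and PSMC3 lie at the upper right and PSMB7 and PSMD6 at the lower left, and most core genes lie left of 0.

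Genes around the proteasome were read from a list of 33, of which 31 passed the level filter. None of the 31 passed for the shRNA in the limma fit, and 18 passed for cell line, beside 7893 of all 14321 tested genes. The assembly factors were higher in MDA-MB-468 in all 5 cases by the limma test, as were 30.7% of all tested genes. PSMG4, a chaperone of alpha ring assembly, was at 7.03 and 6.64 FPKM in BT-20 against 35.5 and 38.2 (log2 difference 2.27, adjusted p = 2.91e-20 by limma). PSMG2 (1.46), PSMG1 (1.39), PAAF1 (0.92) and PSMG3 (0.50) followed. PAAF1 is a chaperone of the base ATPases, and the PSMG proteins act on the core, as does POMP, which was lower in MDA-MB-468 (-0.71).

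The immunoproteasome subunits replace the catalytic ones after interferon exposure. PSMB9, the counterpart of PSMB6, was at 65.1 and 38.7 FPKM in BT-20, against 30.1 and 30.5 in MDA-MB-468, so the ratio of PSMB6 to PSMB9 stayed between 3.89 and 4.09 in all 4 libraries. PSMB10, the counterpart of PSMB7, was at 53.3 and 51.8 against 9.98 and 10.6 FPKM, with a ratio of PSMB7 to PSMB10 of 8.40 and 8.45 in BT-20, against 20.7 and 18.9 in MDA-MB-468; PSMB10 shares 58.3% of its coding bases with another gene. PSMB8, the counterpart of PSMB5, was at 103.0, 94.0, 96.4 and 109.9 FPKM, with PSMB5 to PSMB8 ratios of 1.70, 1.48, 1.37 and 1.17. PSMB5 was thus the catalytic gene closest in level to its counterpart. The thymus subunit PSMB11 and the testis subunit PSMA8 were listed at 0 in all 4 libraries.

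NFE2L1, the transcription factor named above, was at 162.9 and 191.2 FPKM in BT-20 (0.23), against 105.7 and 149.1 in MDA-MB-468 (0.49), higher with the QPRT shRNA in both lines; its limma adjusted p for the shRNA was 1.00. In the same pairs of libraries the core genes were mostly lower, and a link between their levels and that of NFE2L1 was not tested. The deubiquitinase UCHL5, which docks on ADRM1, went from 30.2 to 35.7 FPKM in BT-20 (0.24), whereas MDA-MB-468 stood at 55.3 and then 34.2 (-0.68). Between the lines, VCP, the unfoldase upstream of the proteasome, was higher in MDA-MB-468 by 1.06 and the partner TXNL1 by 1.35. The polyubiquitin gene UBB (-1.46), the ligase UBE3C (-1.38) and the shuttle RAD23B (-1.11) were lower, all 5 past the limma threshold.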

How the data were processed

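RNA-seq was done on 4 libraries, 1 per cell line and shRNA, made with a TruSeq kit from total RNA. The deposited values are FPKM per Ensembl gene, which the authors computed after trimming reads. The submitters' processing notes name FastQC, MultiQC, CASAVA, TopHat2 2.0.12 and HTSeq 0.6.1 without their roles, and the genome build and annotation are not given in the sources used here. Fragments per gene were recovered from FPKM and the mean GENCODE 29 transcript length; 97.6 to 97.8% of nonzero values of single-transcript genes (85.3 to 85.6% of all) came within 0.02 of a whole number, and others were rounded. All 4 columns were mapped to samples (0 unmapped).

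Symbols were found for 49414 identifiers; where 1 symbol was on several rows, only its row of highest mean was used. Genes averaging 1 FPKM or more were used on the log2(FPKM + 1) scale. Differences between libraries were described beside all tested genes, with exact 95% Clopper-Pearson intervals of fragment ratios, which cover counting error only. limma 3.58.1 (R 4.3.3) was fitted with line and shRNA as terms, eBayes with a trend, and Benjamini-Hochberg adjustment over all tested genes. Its standard errors followed the trend across genes at each gene's level, from 0.187 (PSMA7) to 0.300 (PSMD9) among members. The p-values therefore measure a spread pooled over genes in these 4 libraries, and not each gene's own spread. GC content and length trends were removed by lowess (fraction 0.3), or the median of the 200 nearest genes was subtracted. Overlaps came from bedtools 2.31.1.

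In data simulated for the line comparison over 14232 genes, 85% of genes planted at 2-fold and 96% at 4-fold were recovered, and 48 of 229 calls were unchanged genes; for the shRNA comparison these were 82%, 99% and 29 of 210. The share of false calls in these simulations therefore exceeded 5%. That share depends on how many genes differ. Only 100 genes were planted at each fold, whereas 7893 of 14321 passed for cell line in the real libraries, so it does not carry over to those calls. Each planted change was the same in both lines, or with both shRNAs. Variation beyond counting error was a fixed setting that was not taken from these data. Recovery in the real libraries was not tested.

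Members and lists were chosen with earlier results of these data known. Genes given with all 4 values are the catalytic subunits, activators, ADRM1, POMP, PSMD14, PSMD4, both ends of the level order and, in core and cap apart, the 3 largest rises and falls in each comparison. Other scalings, pseudocounts, filters, thresholds and models were tried.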

Additional observations from a re-analysis of the deposited data

Results flagged for a closer look

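PSMC3 and PSME4 were singled out because their differences between the QPRT and control shRNA libraries had opposite directions in the 2 lines. Each difference had a counting interval that did not hold 0. Opposite directions alone were common. Of all 14321 tested genes 4261 were higher in BT-20 and lower in MDA-MB-468 and 3552 the reverse, beside 10 and 6 of the 40 members. The share of all genes that also had both intervals clear of 0 is not given. PSMC3 changed by -0.24 on the log2 scale in BT-20 and by 0.08 in MDA-MB-468, a gap of 0.32. PSME4 changed by 0.23 in BT-20 and by -0.21 in MDA-MB-468, a gap of -0.44 (MDA-MB-468 minus BT-20). Relative to the 200 genes nearest in GC content and length, PSMC3 was at -0.18 (BT-20) against -0.02 (MDA-MB-468), with PSME4 at -0.04 and -0.03 in the same order, so opposite directions were not seen there. With the trend removed PSME4 was at 0.01 and -0.06 and PSMC3 at -0.09 and -0.000901. With 1 library per line and shRNA the difference between the lines was not tested.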

How the results depend on the processing

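Median changes of core and cap kept their sign under every scaling, pseudocount and trend setting tried, except the cap in BT-20, whose -0.02 became 0.03 under TPM scaling. The medians that moved most were those between the lines, and with 1 library per group they have no measured spread. Relative to the 200 nearest genes they became -0.76 (core) and -0.39 (cap) with the control shRNA and -0.45 (cap) with the QPRT shRNA. With the GC content and length trend removed the core median was -0.52 with the QPRT shRNA and the cap median -0.07 with the control shRNA (-0.15 as measured). Scalings shifted the median of all genes by at most 0.044. Without PSMA1, PSMA2, PSMA6 and PSMD9, an alternative chosen after seeing the data, core and cap medians were -0.16 and -0.04 in BT-20, against -0.07 and -0.14 in MDA-MB-468.

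Counts past 1.5-fold depended on the rule by its construction. The looser fold named here is a threshold under 1.5-fold. In BT-20 the 1 lower member became 2 with a pseudocount of 0.1, 0 with the trend removed, 0 relative to the nearest genes, 8 at a looser fold, 0 at 2-fold and 20 by counting interval, and the 0 higher became 5 by interval. In MDA-MB-468 the 0 lower became 1 with a pseudocount of 0.1, 9 at the looser fold and 17 by interval, and the 0 higher 2 by interval. Between the lines with the control shRNA, the 6 higher became 3 with the trend removed, 2 relative to the nearest genes, 1 at 2-fold and 10 by interval, and the 13 lower 20, 3 and 23 at the looser fold, at 2-fold and by interval. With the QPRT shRNA the 3 higher became 9 by interval, and the 13 lower 21, 2 and 26. Shares of all tested genes are given above at 1.5-fold and, for the shRNA comparisons within each line, by counting interval. For the other rules, and for intervals between the lines, no such shares are given. Those counts therefore do not show whether the members differed from other genes.

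The limma count for cell line was 19 to 25 of 40 under the other settings and 0 without the filter on low values. Without that filter 0 of 50626 genes passed, and the cause was not tested. There, 17 members had an unadjusted limma p under 0.05, beside 7482 of the 50626 genes, which include those under 1 FPKM. For the shRNA the limma count was 0 under every setting run, with a lowest adjusted p of 0.761. When eBayes was run without a trend, 1 member (PSMA6) had an unadjusted p under 0.05, beside 804 of 14321 genes. Summing the rows of 1 symbol changed nothing, since each member has 1 row. The labels give no replicate numbers to use as a block; the cell line term pairs the 2 shRNAs within each line, and without it the shRNA count stayed at 0. Leaving out a library was not run, since no group has a second one. Single-gene values kept their call or moved by less than the spread in 1444 of the values recomputed, and 119 moved, 28 lost and 3 gained a call. Depth limits PSMD9 and PSMA6, with 12 to 48 fragments in a library.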
